A study of Arabidopsis thaliana with 6 samples.

Results

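The Aux/IAA genes encode short-lived repressors of the response to the plant hormone auxin. The genes described here are 10 of the 29 Aux/IAA genes of Arabidopsis (IAA1, IAA2, IAA3, IAA4, IAA5, IAA6, IAA7, IAA14, IAA17 and IAA19), chosen by their locus identifiers among 33602 loci in the count files and 25005 genes in the authors' deposited table, and all 10 were found in both. The RNA came from whole seedlings, 1 day old, of the wild type Col-0 and of a vil1 mutant, vil1-1. Each genotype had 3 libraries, which the series design calls biological replicates. Both genotypes had 3 days of dark stratification at 4 °C before growth at 22 °C under 16 h light and 8 h dark. The VIL1 protein has a PHD finger and, like its relative VIN3, acts with Polycomb repressive complex 2. The sources used here do not give the kind of mutation in vil1-1 or how many seedlings made up a library.

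At low auxin an Aux/IAA protein binds an auxin response factor (ARF) and brings in a corepressor of the TOPLESS family, so that the factor's target genes stay off. Auxin joins the Aux/IAA protein to a receptor of the TIR1/AFB family, which marks it for destruction through a short degron, and the ARF is released. Many Aux/IAA genes are themselves auxin-induced, which closes a negative feedback loop. Dominant mutations in the degron named several of the genes, among them axr2 (IAA7), slr (IAA14), axr3 (IAA17), shy2 (IAA3) and msg2 (IAA19), with altered hypocotyl, root or lateral root growth.

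Library totals lay between 46917 and 66546 counts, with 7799 to 9015 genes detected, so 1 count stood for 15 to 21.3 CPM (counts scaled to a common library size) and a count of 0 allowed up to 45.1 to 63.9 CPM (3 counts; counting error only). VIL1 had 0 counts in all 6 libraries, so the counts cannot check the labels. The authors' deposited table has VIL1 at a log2 fold change of -0.91, with an adjusted p of 0.000309. Genes of a greening seedling (RBCS1A, LHCB1.3 and LHCB2.1) had 471 counts in Col-0 and 447 in vil1-1, and genes of oil mobilisation (ICL, MLS and PCK1) had 1756 and 1998. Of 6 seed coat genes TT2, BAN, TT12 and TT10 were at 0 counts in every library, TTG2 had 1 count and MUM4 gave 4, 5 and 7 counts in Col-0 against 2, 2 and 7. The endosperm gene EPR1 had 0 to 9 counts per library. Fewer cells of a type and less RNA per cell cannot be told apart in RNA from whole seedlings.

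Relatedness was measured on the coding sequences, because members of a subgroup share much of their function. IAA1 and IAA2 had 80.4% of bases identical over the longer sequence, IAA3 and IAA4 78.9%, IAA7 and IAA14 80.2%, and IAA6 and IAA19 70.9%. IAA17 came closest to IAA14, at 71.3%. IAA5 stood at 57.4 to 59.2% from IAA1, IAA2, IAA3, IAA4, IAA6 and IAA19, values too alike to place it with any of them. Its coding sequence is short, at 492 bases, and dividing by the longer sequence lowers its identity to longer genes. IAA16, which is outside the 10, stood at 66 to 66.8% from IAA7, IAA14 and IAA17, so these 4 genes form one group (IAA7/14/16/17). No pair was near-identical. Identities were computed on the reference sequence, TAIR10.1.

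The 300 bases before the annotated start of the genes that fell in vil1-1 (IAA4, IAA7 and IAA17, below) and of IAA19, which carries the most copies of TGTCTC among the 10, are printed for comparison. They lie at chr5:17549879-17550178 for IAA4, chr3:8194306-8194605 for IAA7, chr1:1135778-1136077 for IAA17 and chr3:5263701-5264000 for IAA19, all on the plus strand (RefSeq, TAIR10.1). Each is written 5′ to 3′ with 4 motifs in capitals where present on either strand: the auxin response elements TGTCTC and TGTCGG, which ARFs bind, the G-box CACGTG, bound by bZIP and bHLH factors, and the RY element CATGCA, bound by B3 factors of seed maturation.
IAA4: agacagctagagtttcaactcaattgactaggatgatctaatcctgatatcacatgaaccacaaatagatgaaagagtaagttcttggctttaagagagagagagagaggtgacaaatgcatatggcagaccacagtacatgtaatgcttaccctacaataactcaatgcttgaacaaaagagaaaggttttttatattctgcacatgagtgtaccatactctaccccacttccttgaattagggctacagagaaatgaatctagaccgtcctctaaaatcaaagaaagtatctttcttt
IAA7: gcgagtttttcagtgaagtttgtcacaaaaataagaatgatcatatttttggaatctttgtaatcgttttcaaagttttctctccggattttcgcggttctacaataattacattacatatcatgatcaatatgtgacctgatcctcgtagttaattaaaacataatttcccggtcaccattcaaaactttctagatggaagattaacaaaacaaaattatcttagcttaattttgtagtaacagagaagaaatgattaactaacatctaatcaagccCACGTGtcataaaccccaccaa
IAA17: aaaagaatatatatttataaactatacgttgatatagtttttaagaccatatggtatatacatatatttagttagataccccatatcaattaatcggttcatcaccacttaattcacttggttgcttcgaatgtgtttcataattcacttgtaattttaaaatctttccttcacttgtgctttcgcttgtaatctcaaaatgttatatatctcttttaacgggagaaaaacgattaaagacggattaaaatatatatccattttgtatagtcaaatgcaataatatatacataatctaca
IAA19: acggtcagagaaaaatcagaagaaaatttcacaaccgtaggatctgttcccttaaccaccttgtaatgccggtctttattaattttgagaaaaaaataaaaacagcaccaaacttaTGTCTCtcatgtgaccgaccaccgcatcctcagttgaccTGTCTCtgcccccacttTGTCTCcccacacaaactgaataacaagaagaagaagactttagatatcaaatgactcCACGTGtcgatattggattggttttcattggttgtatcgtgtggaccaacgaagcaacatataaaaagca
No capitals appear in the IAA4 and IAA17 windows. The IAA7 window holds a G-box, beginning 22 bases before the start, and the IAA19 window holds TGTCTC at 184, 145 and 128 bases and a G-box at 70 bases before the start. TGTCTC occurred in 5 of the 10 windows (IAA1, IAA3, IAA5, IAA6 and IAA19), against 13% of 27443 windows of protein-coding genes. None of these 5 genes was called between the genotypes, beside 7.13% of all genes in the authors' deposited table. All 5 were weakly expressed there, at a mean log2 CPM of 2.99 or less, so the lack of a call says little about them. TGTCGG occurred in 2 (1 copy in IAA1 and 2 in IAA5), against 4.91% of all windows. The G-box occurred in 2 (IAA7 and IAA19), against 7.09%, and the RY element in 0, against 10.3%. Of the windows of the other 19 Aux/IAA genes, 6 held TGTCTC, 4 TGTCGG, 2 the G-box and 3 the RY element. A match is a description of the letters in these windows, and the motifs searched do not overlap one another here.

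The question was which of these repressor genes differ in transcript level between vil1-1 and the wild type just after germination. By the authors' deposited table, vil1-1 had lower transcript levels of 3 of the 10 genes and a higher level of none. IAA7 fell 2.17-fold, IAA17 1.85-fold and IAA4 1.41-fold. The remaining 7 also had log2 fold changes below 0, between -0.06 and -1.82, but none of them passed the test. The -1.82 is that of IAA6, which carries no measurement (below). Values below 0 were held by 55.1% of all genes, and by 51.5% of those with a mean log2 CPM of at least 0. Over all 25005 genes there, 7.13% were called, 3.58% as lower and 3.56% as higher in vil1-1, and the call as lower was made for 6.3% of the 8413 genes with a mean log2 CPM of at least 4, the range that holds the 3 called genes and IAA2. The median log2 fold change of the 10 was -0.44, beside -0.05 for the whole of the authors' deposited table and -0.01 for its 20171 genes with a mean log2 CPM of at least 0. Adjusted p-values are Benjamini-Hochberg values computed here from the p-values of the authors' deposited table, across its 25005 genes, with 0.05 as the threshold. The fold changes are the authors' own. Of the 25005 genes, 10137 were at 0 counts in all 6 libraries, so the authors' deposited table cannot be taken as a summary of the count files, and it and the counts are given side by side below. Intervals are approximate 95% intervals from its log2 fold changes and F statistics. Genes of similar level had the same standard error there: IAA2, TPR1 and ARF6, at 37.6, 36.8 and 36.6 CPM, all had 0.13. The p-values there also followed a chi-square with 1 degree of freedom, within 0.002 in log10 for the 24290 genes with F under 20. These intervals and the p-values therefore carry little of a gene's own spread between replicates.

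**Figure D1:**
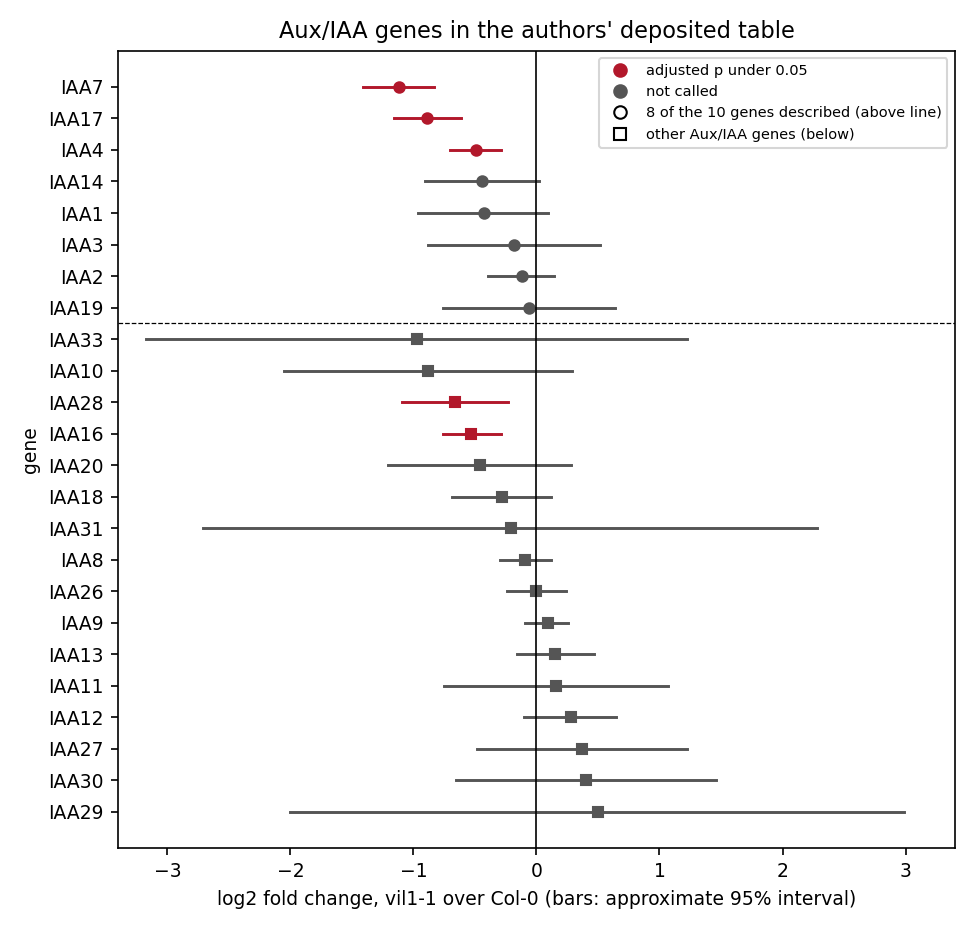
Log2 fold change, vil1-1 relative to Col-0, from the authors' deposited table for Aux/IAA genes with a mean log2 CPM of at least 0; bars are approximate 95% intervals and red marks an adjusted p under 0.05. IAA7, IAA17 and IAA4 lie wholly below 0 among the 8 genes above the dashed line, and IAA28 and IAA16 among the other family members below it.

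IAA7 (AT3G23050, chromosome 3, 8194606 to 8197161, plus strand, TAIR10.1) is the gene of the axr2 mutant, whose stabilised protein gives dwarf, agravitropic plants. In Col-0, replicates 1, 2 and 3 gave 2, 2 and 3 counts, and in vil1-1 they gave 0, 1 and 1. Every Col-0 library was above every vil1-1 library, at 39.2 ± 8.35 and 12 ± 10.6 CPM (SD, n = 3 each). IAA7 was the 1 gene of the 10 with CPM ranges that do not overlap, an order (Col-0 above) that 3.33% of the 14869 genes with any count had. Genes with fewer than 3 counts cannot show this order, so the share is larger among genes that can. Its pooled CPM in vil1-1 was 0.322 of that in Col-0, with an exact 95% interval of 0.0327 to 1.69 that covers counting error only. The authors' deposited table gave IAA7 a log2 fold change of -1.12 (interval -1.41 to -0.83, adjusted p = 8.78e-12) at a mean of 30.6 CPM.

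IAA17 (AT1G04250, chromosome 1, 1136078 to 1138663, plus strand) is the gene of the axr3 mutants, which lack normal root gravitropism and root hairs. Counts were 4, 1 and 3 in Col-0 and 0, 0 and 1 in vil1-1. The ranges all but separated: the single count of vil1-1 replicate 3 was 0.77 CPM above the single count of Col-0 replicate 2. The pooled CPM ratio was 0.141 (exact 95% interval 0.00318 to 1.05, counting error only). In the authors' deposited table IAA17 had a log2 fold change of -0.89 (interval -1.16 to -0.61, adjusted p = 3.44e-08) at a mean of 33.9 CPM.

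IAA4 (AT5G43700, chromosome 5, 17550179 to 17551715, plus strand), named ATAUX2-11 in the reference, is an early auxin-induced gene. Each Col-0 library gave 4 counts, and the vil1-1 libraries gave 3, 2 and 0. Scaled to library size, vil1-1 replicate 1 lay above Col-0 replicates 2 and 3, so the groups overlapped (Col-0 68 ± 12.1, vil1-1 34.8 ± 32.4 CPM, SD, n = 3 each). Its pooled ratio was 0.47 (exact 95% interval 0.13 to 1.43, counting error only). The authors' deposited table gave IAA4 a log2 fold change of -0.49 (interval -0.70 to -0.29, adjusted p = 0.000127) at a mean of 76 CPM, and this call was lost under Holm adjustment (p = 0.0813). IAA7 and IAA17 remained called under Holm adjustment.

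IAA14 (AT4G14550), the gene of the solitary-root mutant, which makes no lateral roots, is the closest relative of IAA7. Counts of 0, 1 and 1 in the Col-0 libraries stood against 1, 1 and 0 in those of vil1-1, with overlapping groups. Its log2 fold change in the authors' deposited table was -0.44 (interval -0.91 to 0.02, adjusted p = 0.327) at 9.96 CPM. IAA7 was lower than IAA14 in log2 fold change by -0.68 (interval -1.23 to -0.13, unadjusted, for a pair picked after the values were seen). For IAA17 the difference from IAA14 was -0.44 (interval -0.99 to 0.10), so no difference was shown there, and the interval still allows one of 0.99.

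Of the IAA1 to IAA4 group, IAA2 (AT3G23030), an early auxin-induced gene often used as a response reporter, was the best measured after IAA4. The Col-0 libraries gave 0, 1 and 5 counts, most of them from replicate 3, and the vil1-1 libraries 1, 1 and 2, within the Col-0 range. In the authors' deposited table IAA2 had a mean of 37.6 CPM and a log2 fold change of -0.12 (adjusted p = 0.682). Its interval of -0.39 to 0.14 does not reach the estimate for IAA7. IAA1 (AT4G14560), another early auxin-induced gene, had 1, 0 and 1 counts in Col-0 and none in vil1-1, and a log2 fold change of -0.43 (interval -0.96 to 0.09) in the authors' deposited table. IAA3 (AT1G04240), the SHY2 gene that limits root meristem size downstream of cytokinin, gave 2, 0 and 0 counts across the Col-0 libraries and 0, 1 and 0 across those of vil1-1, which overlap. Its log2 fold change in the authors' deposited table was -0.18, with a wide interval of -0.88 to 0.52.

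IAA5, IAA6 and IAA19, of which IAA19 (the MSG2 gene) acts in hypocotyl bending, had 0 counts in all 6 libraries. IAA19 was at 4.65 CPM in the authors' deposited table, a level at which 1.58 counts would be expected over the 6 libraries together, and had a log2 fold change of -0.06 (interval -0.76 to 0.64). IAA5 was at 0.898 CPM there, with an interval of -3.26 to 2.55. IAA6 was at 0.687 CPM, the lowest level in the authors' deposited table (mean log2 CPM -0.54). Its log2 fold change of -1.82 and this level are shared, within 0.001, by 1426 genes, so that value carries no measurement of IAA6.

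**Figure D2:**
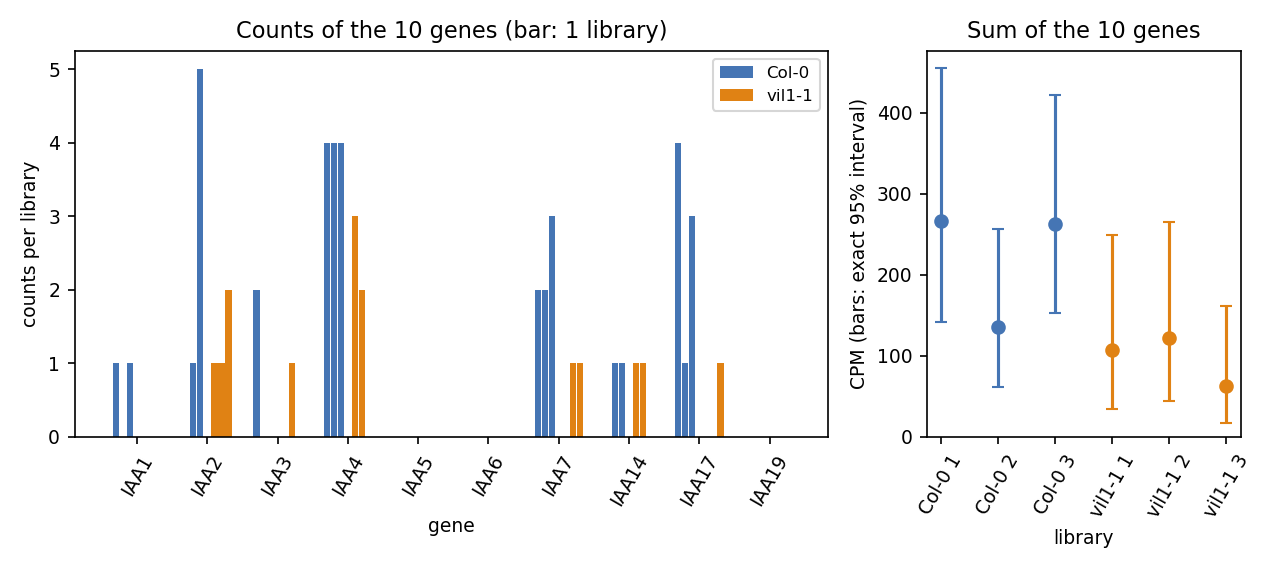
Left, counts of each of the 10 genes, 1 bar per library, with Col-0 in blue and vil1-1 in orange in the order of replicates 1, 2 and 3; right, their summed CPM in each library with exact 95% intervals for counting error. No gene exceeded 5 counts in a library, and the summed CPM was 135 to 266 in Col-0 and 63.2 to 122 in vil1-1.

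In the count files 7 of the 10 genes had at least 1 count and none passed edgeR's default filter, which kept 942 genes, so none was tested singly in the main setting, where 3.72% of genes were called and 0.955% were called as lower in vil1-1. Without the filter, edgeR's quasi-likelihood test called none of the 7 (adjusted p = 0.772 to 0.966). In that test 1 of them, IAA17, had an unadjusted p under 0.05. DESeq2 and limma-voom without the filter also called 0 of the 7, with 0 and 2 at an unadjusted p under 0.05. The depth does not allow a statement on single genes from the counts alone.

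Summed over the 10 genes, the Col-0 libraries (replicates 1, 2 and 3) held 13, 9 and 17 counts and the vil1-1 libraries 5, 6 and 4. In CPM these were 266, 135 and 263 against 107, 122 and 63.2, so every Col-0 library was above every vil1-1 library, though Col-0 replicate 2 was close to vil1-1 replicate 2. The separation was not particular to these genes: the 6 TIR1/AFB receptor genes summed to 387 to 556 CPM in the Col-0 libraries and 234 to 300 CPM in those of vil1-1. The means were 222 ± 74.7 and 97.1 ± 30.3 CPM (SD, n = 3 each), a ratio of 0.438. IAA4, IAA7 and IAA17 supplied 27 of the 39 Col-0 counts and 8 of the 15 vil1-1 counts. The other 7 genes had 12 and 7 counts, with overlapping groups. The other 19 genes of the family had 63 counts in Col-0 and 57 in vil1-1, at 349 ± 47.3 and 351 ± 95.9 CPM (SD, n = 3 each). With Col-0 replicates 2 and 3 left out, a check chosen after seeing the data, the ratio for the 10 genes was 0.365.

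Per kilobase of the longest annotated transcript, the level in the authors' deposited table was highest for IAA4, at 56.1 CPM per kb. IAA2 followed at 27.7, IAA17 at 25.7 and IAA7 at 19.8 CPM per kb. A lower tier held IAA1 at 8.38, IAA14 at 5.77, IAA19 at 4.6 and IAA3 at 3.47 CPM per kb, with IAA5 at 1.15 and IAA6 at 0.801 last. These levels are the authors' values, made from libraries that are not stated, and carry no spread, so neighbours in this order cannot be called different from them. In the Col-0 count files IAA4 was at 50.1 ± 8.89, IAA17 at 36.3 ± 25.4, IAA7 at 25.4 ± 5.41 and IAA2 at 22.7 ± 30.2 CPM per kb (SD, n = 3). IAA17, IAA7 and IAA2 overlapped one another, and IAA17 in Col-0 replicate 1 and IAA2 in Col-0 replicate 3 reached the range of IAA4. In vil1-1 the order of the means was IAA4 (25.7 ± 23.9), IAA2 (18 ± 4.61), IAA14 (8.03 ± 6.96), IAA7 (7.79 ± 6.9), IAA3 (4.99 ± 8.64) and IAA17 (4 ± 6.93 CPM per kb, SD, n = 3). The last 4 of these rest on 1 or 2 counts each.

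Of the 10 genes, 6 lie in 3 neighbouring pairs, each joining 1 gene of the IAA7/14/16/17 group with 1 of the IAA1 to IAA4 group. In every pair the genes point away from each other, with 6388 to 12510 bases and 1 annotated long noncoding RNA locus between them. On chromosome 3, IAA7 had a log2 fold change of -1.12 and its neighbour IAA2 one of -0.12 in the authors' deposited table, and the interval of their difference was -1.39 to -0.60. On chromosome 1, IAA17 had -0.89 and IAA3 -0.18, a difference of -0.71 whose interval of -1.46 to 0.04 just reaches 0. On chromosome 4, IAA14 and IAA1 had -0.44 and -0.43, a difference of -0.01 (interval -0.71 to 0.69). These intervals are unadjusted, treat the genes as independent and were computed for 10 pairs of genes picked after the values were seen.

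**Figure D3:**
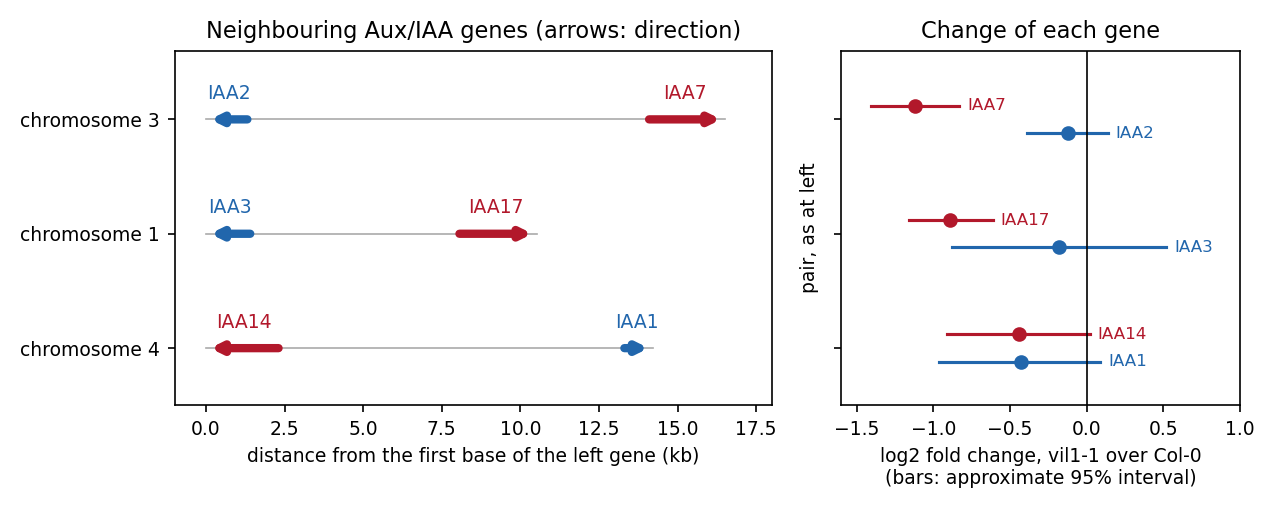
Left, the 3 pairs of neighbouring Aux/IAA genes drawn to scale in kilobases, with arrows for the direction of transcription; right, the log2 fold change of each gene in the authors' deposited table with its approximate 95% interval. IAA7 lies well below its neighbour IAA2, whereas IAA14 and IAA1 lie together.

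Among the other 19 Aux/IAA genes, the authors' deposited table has 2 lower in vil1-1 and none higher, with a median of -0.09. That is 10.5% called, beside 7.13% over all genes. IAA16 had a log2 fold change of -0.53 (interval -0.76 to -0.29, adjusted p = 0.000374) and IAA28, which represses lateral root formation, -0.66 (interval -1.09 to -0.23, adjusted p = 0.042). Of the group IAA7/14/16/17, therefore, IAA7, IAA16 and IAA17 were called and IAA14 was not. IAA14, at 9.96 CPM against 52.2 CPM for IAA16, had an interval (-0.91 to 0.02) that holds the IAA16 estimate. Its missing call therefore shows no difference from IAA16. In log2 fold change IAA7 was lower than IAA16 by -0.60 (interval -0.97 to -0.22, unadjusted, for a pair picked after the values were seen). The most abundant family member, IAA9, gave 9, 11 and 14 counts across the Col-0 libraries and 10, 6 and 14 across those of vil1-1, with a log2 fold change of 0.09 (interval -0.09 to 0.26) in the authors' deposited table. IAA8, IAA9's relative, had -0.09 (interval -0.30 to 0.12).

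The partners of the repressors showed few calls in the authors' deposited table, where 7.13% of all genes were called. Lists this short would hold few calls at that share. None of the 6 TIR1/AFB receptor genes was called, with a median of 0.11. AFB5, at 63 CPM, and AFB2, at 54.3 CPM, both had -0.00 there, and TIR1, also at 54.3 CPM, had 0.21 (interval -0.01 to 0.44). In the count files, by contrast, the summed receptor counts were lower in vil1-1, at 44 counts against 81 in Col-0, and the CPM ranges were separate, as described above. AFB3 held most of these counts, with 11, 23 and 15 from Col-0 replicates 1, 2 and 3 against 7, 6 and 13 from vil1-1. The authors' deposited table has AFB3 at only 29.7 CPM, with a log2 fold change of -0.28 (interval -0.57 to 0.01, adjusted p = 0.301). None of the 5 TOPLESS family corepressor genes was called, with TPL at -0.14 and TPR2 at 0.05. Of the 5 activating ARF genes none was called, with a median of -0.13, and ARF6 had -0.11 and ARF8 0.13. Of the 10 other ARF genes 1 was lower, ARF10, a target of the microRNA miR160, at -0.79 (interval -1.30 to -0.27, adjusted p = 0.0424).

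Of the GH3 genes 1 of 6 with a value was called (16.7%, beside 7.13% over all genes). GH3.3, which encodes an enzyme that conjugates auxin to amino acids and is strongly auxin-induced, was 5.37-fold lower in the mutant by the authors' deposited table (log2 fold change -2.42, interval -2.84 to -2.01, adjusted p = 1.06e-27). It had 1 count in Col-0 replicate 1 and 0 in the other 5 libraries. The other 5 GH3 genes with a value were not called, GH3.5 and GH3.6 among them at -0.11 and 0.35. Summed over the GH3 list, the counts were 5 in Col-0 and 11 in vil1-1. Of 68 small auxin up RNA (SAUR) genes with a value, which promote cell expansion in part, 6 were higher and 2 lower, with a median of -0.18. That is 11.8% called, beside 7.13% over all genes. Among them SAUR3 (AT4G34790) had a log2 fold change of 1.51, SAUR78 (AT1G72430) 0.58, SAUR32 (AT2G46690) -0.69 and SAUR57 (AT3G53250) -2.46 in the authors' deposited table. SAUR genes are short and partly near-identical, so reads can be split between copies. The list holds 80 loci taken by name or product, of which 2 have another product in the reference.

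Genes of auxin synthesis and transport were not called, beside 7.13% called over all genes, a share at which lists this short would hold few calls. Of 14 synthesis genes 11 had a value, with a median of -0.15, and the most abundant, TAA1 and TAR2, had -0.10 and 0.01 in the authors' deposited table. Of 14 transport genes 13 had a value, with a median of 0.09, and AUX1, the influx carrier, had -0.15 (interval -0.34 to 0.05) and ABCB19 0.09. AUX1 gave 9, 13 and 12 counts across the Col-0 libraries and 7, 9 and 10 across those of vil1-1. The lateral root factors LBD16 and LBD18 had 0.15 and 0.22 and were not called.

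**Figure D4:**
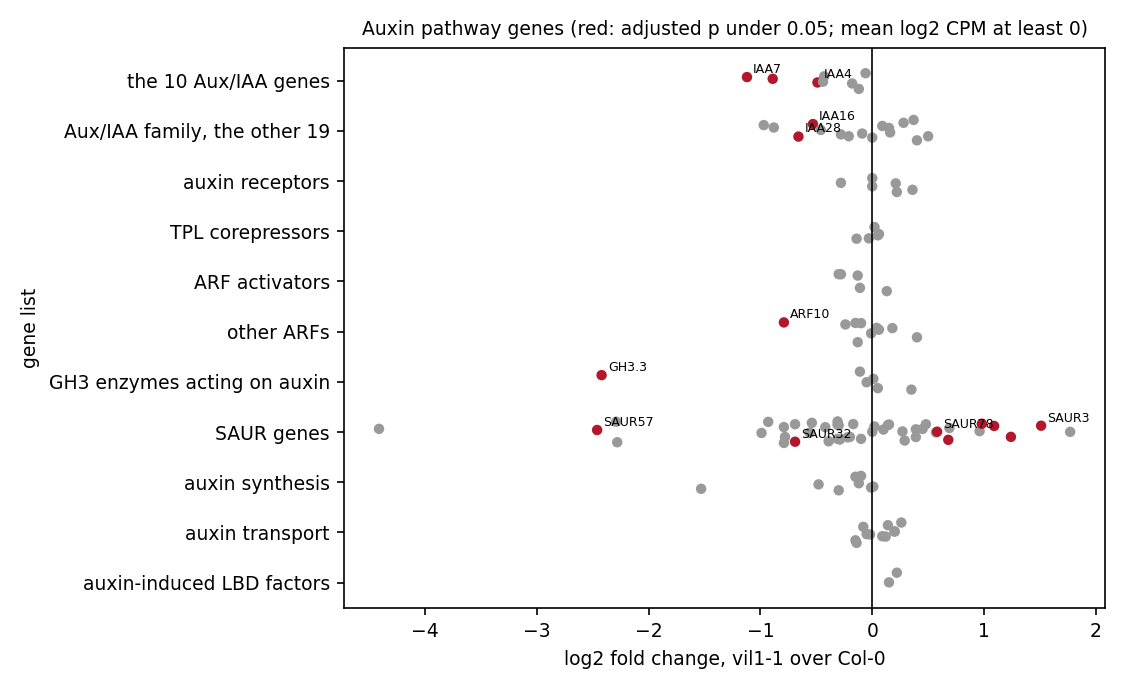
Log2 fold change, vil1-1 relative to Col-0, from the authors' deposited table for auxin pathway genes with a mean log2 CPM of at least 0, 1 point per gene in rows by list, with vertical scatter only to separate points; red marks an adjusted p under 0.05. Red points lie to the left in both Aux/IAA rows, and on both sides in the SAUR row.

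Markers of root hairs, of the seed state and of oil mobilisation also differed between the genotypes. Of 3 root genes, COBL9 (-1.27, adjusted p = 0.000132) and PRX44 (-0.95, adjusted p = 3.75e-05), both of root hairs, were lower in the mutant by the authors' deposited table, and PIN2, of the root tip, had -0.02. The summed counts of the 3 root genes were at 0 to 62 CPM in Col-0 and 20.3 to 47.4 CPM in vil1-1. Over all libraries PIN2 held 8 counts, PRX44 2 and COBL9 1, so this sum says little about the root hair genes. All 5 seed maturation genes were higher, from AT2S3 at 0.48 to LEA4-5 at 2.74 in the authors' deposited table, and their summed CPM was 60.1 to 124 in Col-0 and 348 to 446 in vil1-1. The 3 oil-mobilising genes were all higher too, ICL at 0.42 (adjusted p = 4.05e-16), PCK1 at 0.20 (adjusted p = 0.0148) and MLS at 0.17 (adjusted p = 0.0385) in the authors' deposited table. The part of these markers in the fall of IAA4, IAA7 and IAA17 was not tested. None of the 5 seed coat genes and 3 endosperm genes with a value was called, beside 7.13% over all genes. Only 2 of the 5 and 2 of the 3 had a mean log2 CPM of at least 0. The seed coat gene TT2 and the endosperm gene ZOU held the value of IAA6 that carries no measurement (-1.82). For genes at such levels the lack of a call says little.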

How the data were processed

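RNA-seq libraries of Col-0 and vil1-1 seedlings (3 each) were grouped by their titles. The submitters' processing notes list Bowtie2, featureCounts, edgeR and TAIR10, without versions. Per the file headers, each library's deposited file holds raw counts per gene, and the authors' deposited table holds a p-value per gene beside its F score, log2 fold change and mean log2 CPM. Which libraries it was made from is not stated in those sources, and 10137 of its 25005 genes have no count in any deposited count file. For the 24290 genes with F under 20, treating F as chi-square with 1 degree of freedom returned the p-values within 0.002 in log10, so standard errors were taken as the absolute log2 fold change over the square root of F, and intervals as 1.96 of them.

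Counts were tested with edgeR 4.0.16 (R 4.3.3), quasi-likelihood, TMM, default filter, genotype only, Benjamini-Hochberg adjusted p under 0.05. Alternatives included DESeq2 1.42.0 and limma-voom 3.58.1. On 5 simulated sets (939 genes tested on average, 200 changed) it found 70.6% of 2-fold and 87.4% of 4-fold changes, with 3.1% of calls false. The changed genes were drawn from those past the default filter, with a common dispersion. None of the 10 members passed that filter, so these rates do not apply to them. The sources used here do not give the strand setting or the handling of multi-mapping reads. Coordinates, lengths and names come from RefSeq TAIR10.1, which held 32835 of the 33602 loci and is taken to share its nuclear sequence with TAIR10; the deposited files hold no coordinates. Coding identity was the best over annotated isoforms (Biopython 1.88). The 10 members are all named; from each list up to 4 called genes with the smallest p, or the 2 most abundant, are named. Members, lists and tests were chosen with earlier results of these data known. IAA8, IAA9, GH3.5, GH3.6 and some markers were named after their values were seen.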

Additional observations from a re-analysis of the deposited data

How the results depend on the processing

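From the counts 35 genes were called in all. The count of 0 called among the 10 Aux/IAA genes says nothing about stability, since members were tested only with no filter (7 of them) and with a filter of CPM above 1 (5 of them). The total was 8 with DESeq2, 21 with no filter, 7 without Col-0 replicates 2 and 3 together (1 Col-0 library then assumed to vary like vil1-1) and 19 to 36 with 1 library left out, lowest without vil1-1 replicate 2. With the replicate number as a replicate block it was 35. Same-numbered libraries had deviations correlated at 0.08, -0.03 and 0.02, so no pairing was seen, though counting error at this depth could hide one.

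In fits with no filter, IAA4, IAA7 and IAA17 stayed below 0 in every alternative run, at -1.79 to -0.40, -1.89 to -1.05 and -4.39 to -2.01 with 1 library left out. Given their counts, leaving out any 1 library could not reverse these signs, so the signs are no evidence of stability. None of these genes was called by edgeR with no filter (adjusted p = 0.772 for each). IAA1, with no count in vil1-1, could not change sign, and its values depend on the prior count. IAA2 (-0.39) went to 0.27 with limma-voom, to 3.52 without Col-0 replicates 2 and 3 together, and ranged from -0.87 to 1.29 with 1 library left out, highest without Col-0 replicate 3. IAA3 (-0.67) ranged from -2.64 to 1.95, highest without Col-0 replicate 1, and IAA14 (0.14) from -0.28 to 0.74, where -0.28 came without Col-0 replicate 1, while leaving out vil1-1 replicate 1 gave -0.26 and vil1-1 replicate 2 gave -0.25. Single counts decide these values.

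In the authors' deposited table the 3 calls held at an adjusted p under 0.01 and over genes with a mean log2 CPM of at least 0. Holm adjustment left 2 of the 3, and 629 of all 1784 calls. Ranking levels by CPM without length swapped IAA1 with IAA14 and IAA19 with IAA3, and exon union length changed no rank.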
